A study of Caenorhabditis elegans with 6 samples.

Results

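The let-7 family is the group of microRNAs (miRNAs) that times larval development in *Caenorhabditis elegans*. The 7 guide arms described here are cel-let-7-5p, cel-miR-48-5p, cel-miR-84-5p, cel-miR-241-5p, cel-miR-793, cel-miR-794-5p and cel-miR-795-5p, chosen by name from the 437 mature miRNAs listed in each count file, and all 7 were found. Small RNA libraries came from whole wild-type N2 worms grown on nematode growth medium. There were 3 libraries of untreated control worms and 3 of worms exposed as L4 larvae to cadmium chloride at 60 µmol/L, at 20 °C with OP50 bacteria as food. How long the exposure lasted, the stage of the control worms, the age at harvest and whether libraries came from separate cultures are not given in the sources used here, so p-values measure the spread between these libraries, which may be technical.

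A miRNA guides an Argonaute protein to messenger RNAs through its seed, the bases near its 5′ end, and lowers their output. In *C. elegans* the heterochronic pathway orders the cell divisions of each larval stage: lin-4 acts early on lin-14 and lin-28, the sisters miR-48, miR-84 and miR-241 then act on hbl-1, and let-7 acts last, on lin-41, at the passage to the adult. Family levels rise through larval life, and the RNA-binding protein LIN-28 holds back the maturation of let-7 until late larval stages. miR-793, miR-794 and miR-795 were grouped with the family by sequence and have been studied less. The messenger RNA targets were not analysed here. Mature sequences were not used here either, and the members are described by position and level.

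All 7 hairpins lie between protein-coding genes of the WBcel235 genome, and 4 of them form pairs of close neighbours. The let-7 hairpin is on the minus strand of chromosome X, at chrX:14744173-14744271, with its 22-base 5p arm at chrX:14744234-14744255 and the nearest protein-coding gene, C05G5.7, 392 bases away. The mir-84 hairpin (chrX:16022404-16022478, minus strand) is 648 bases from nhx-1, and the mir-793 hairpin (chrX:13857962-13858053, plus strand) is 646 bases from mct-3. The mir-48 hairpin (chrV:14364412-14364509) and the mir-241 hairpin (chrV:14366188-14366283) share the minus strand of chromosome V and are 1678 bases apart. The mir-795 hairpin (chrI:12594569-12594657) and the mir-794 hairpin (chrI:12595690-12595773) share the plus strand of chromosome I and are 1032 bases apart. The annotated mature miR-793 begins at base 56 of its 92-base hairpin, on its 3′ side, whereas the guide arms of the other members lie on the 5′ side, beginning at base 9 to 17. Annotated guide arms are 21 bases (miR-241-5p) to 24 bases long (miR-84-5p and miR-795-5p), so their levels can be set side by side without a correction for length, although ligation can favour some ends over others.

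Library totals ran from 1640693 counts (control replicate 1) to 3917414 (control replicate 3). All 7 members had at least 148 counts in every library and passed the filter on low counts, which left 208 of 437 miRNAs. Levels below are CPM, counts scaled to a common library total, after scaling by the trimmed mean of M-values (TMM), which assumes that most miRNAs do not change. Values given library by library are in the order of replicates 1, 2 and 3. The scaling matters here: it raised the effective size of control replicate 1 by a factor of 1.14 and lowered that of cadmium replicate 3 to 0.868 of its total. In the text, fold changes are log2 cadmium minus control from edgeR's quasi-likelihood test, adjusted over all 208 miRNAs, with a threshold of 0.05. Counting error was small beside the spread between libraries for the family's share of a library, whose 95% Wilson interval is at most 0.026 percentage points to either side. It was not small for miR-795-5p, whose share of the family had control intervals of 0.035 to 0.053 points to either side against an SD of 0.046, nor for the scarce opposite arms. The labels name no molecular identifiers, so such intervals cover counting error only.

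The members split into 3 abundant and 4 scarce ones in every library. The abundant members were miR-48-5p, let-7-5p and miR-84-5p, which together made up 95.9% to 96.9% of the family's counts in every library. The order among them was the same in all 6 libraries: miR-48-5p was 2.08 to 2.85 times let-7-5p, and let-7-5p was 1.33 to 1.64 times miR-84-5p. Next came miR-241-5p and miR-793, and miR-84-5p was 8.23 to 13.3 times miR-241-5p. miR-241-5p and miR-793 did not differ beyond their spread, since miR-241-5p was above miR-793 in 3 libraries and below it in 3. The scarcest by mean level were miR-794-5p and miR-795-5p. miR-793 exceeded miR-794-5p by 1.92 to 4.57 times, and miR-794-5p exceeded miR-795-5p in all 6 libraries, by 1.03 to 1.80 times. Among all listed miRNAs, miR-48-5p ranked 13 by mean level, let-7-5p 28 and miR-84-5p 35, while miR-795-5p ranked 98.

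**Figure D1:**
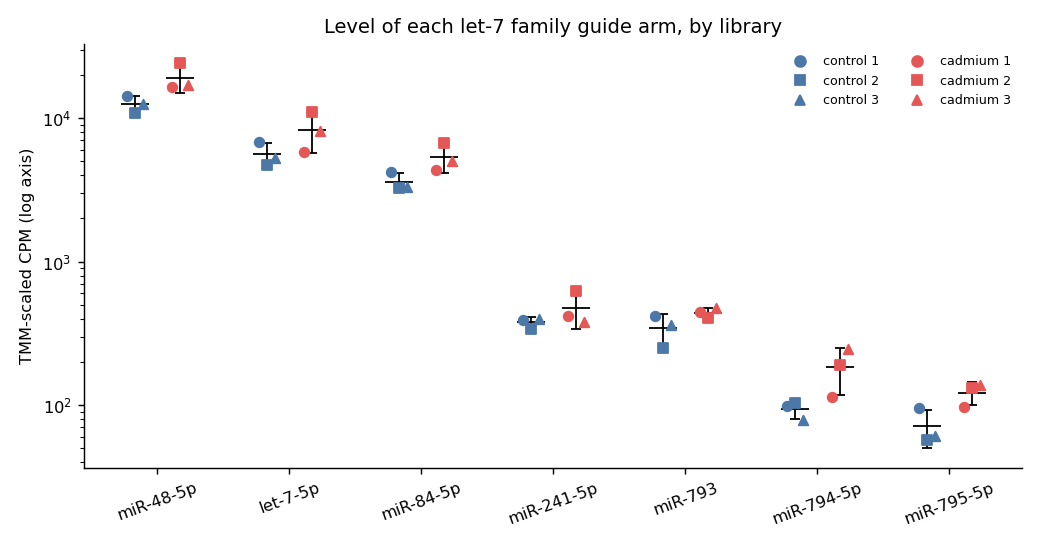
TMM-scaled CPM (log axis) of each family guide arm in the 3 control and 3 cadmium libraries, with the mean and SD of each group as bars. The 3 abundant members lie well above the other 4, and the 3 cadmium libraries lie above the 3 control libraries for miR-48-5p, miR-84-5p, miR-794-5p and miR-795-5p, of which only miR-794-5p keeps that separation in deposited CPM.

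The comparison asked how the family differed between cadmium-exposed and control worms. Under cadmium 1 of 7 members rose past the threshold, miR-794-5p, and the other 6 did not pass it. Over all tested miRNAs, 21.6% passed in either direction and 9.62% passed as higher. That is 20 higher among 45 that passed, and total-count scaling, which shifted the median of all miRNAs to −0.16, gave 9 higher among 39. All 7 fitted changes were above 0, from 0.33 to 0.98 with a median of 0.58, whereas 50.5% of all tested miRNAs had a fitted change above 0 and their median was 0.0039. An unadjusted p under 0.05 was reached by 5 of 7 members, against 17.3% of all tested miRNAs (higher ones). In 4 of 7 members every cadmium library lay above every control library, a separation seen for 17.8% of all tested miRNAs. That count holds for TMM-scaled CPM: in the authors' deposited CPM 1 of 7 members, miR-794-5p, was separate, against 12% of all tested miRNAs. The members were chosen with earlier results of these data known, so these counts are a description. They also turned on single libraries: 5 of 7 members passed without cadmium replicate 1, only miR-795-5p passed without control replicate 1, and 0 passed without control replicate 2 or 3 or cadmium replicate 2 or 3. In whole worms, fewer cells of a type and less RNA per cell cannot be told apart, and the same holds for a rise.

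miR-48-5p, the most abundant member, was at 14270.4, 10859 and 12583 CPM in the control libraries and at 16415, 24093 and 16957 CPM under cadmium. The groups did not overlap on this scale, and cadmium replicate 2 was the highest. In deposited CPM they did, with control replicate 1 at 16285 and cadmium replicate 3 at 14715. The change of 0.61 (SE 0.20, 95% interval 0.16 to 1.05) missed the threshold, with an adjusted p of 0.0521 in edgeR's test. Of 17 settings, counting the main one, 5 passed, among them edgeR with DESeq2 size factors (0.0453) and the DESeq2 Wald test (0.0283). It did not pass in edgeR's test with total-count scaling (0.215), with a replicate block (0.143) or without cadmium replicate 2 (0.168). Nor did it pass in limma on log2(deposited CPM + 1) (0.281).

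let-7-5p, the founding member, was at 6853, 4721 and 5273 CPM in the control libraries and at 5768, 10969.8 and 8098 CPM under cadmium. Here the groups overlapped, because control replicate 1 lay above cadmium replicate 1. Its change was 0.56 (SE 0.24, 95% interval 0.02 to 1.10), with an adjusted p of 0.126 in edgeR's test. Without cadmium replicate 1 the change was 0.80 and the adjusted p 0.0212. Without cadmium replicate 2 the change was 0.31 (adjusted p 0.367 in edgeR's test), and with total-count scaling it was 0.34 (0.341). Of 17 settings, counting the main one, 2 passed.

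miR-84-5p, the hbl-1 regulator encoded on the X chromosome, was at 4203, 3235 and 3301 CPM in the control libraries and at 4328, 6677 and 5028 CPM under cadmium. Its groups stood apart by a narrow gap, between control replicate 1 and cadmium replicate 1, and overlapped in deposited CPM, where those libraries were at 4797 and 4549. The change was 0.58 (SE 0.21, 95% interval 0.12 to 1.03), with an adjusted p of 0.0656 in edgeR's test. The first replicate of each group is thus what brings the groups close in let-7-5p and miR-84-5p alike.

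miR-241-5p, the close neighbour of miR-48, was at 393, 338 and 401 CPM in the control libraries and at 417, 624 and 379 CPM under cadmium. Cadmium replicates 1 and 2 lay above all controls, replicate 1 by a narrow gap, and cadmium replicate 3 lay within the control range. Its change was the smallest of the family, 0.33 (SE 0.23, 95% interval −0.18 to 0.84, adjusted p 0.350 in edgeR's test), and the interval takes in both no change and a change as large as that of miR-48-5p.

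miR-793 was at 420, 249.6 and 360 CPM in the control libraries and at 442, 406 and 472 CPM under cadmium. Control replicate 1 lay within the cadmium range, and the other 2 controls lay below it. The change was 0.36 (SE 0.23, 95% interval −0.14 to 0.86, adjusted p 0.296 in edgeR's test).

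miR-794-5p had 185, 267 and 310 counts without cadmium and 405, 649 and 550 with it, or 98.8, 103 and 78.7 CPM against 115, 192 and 246 CPM. Every cadmium library was above every control library, also in deposited CPM. The change was the largest of the family, 0.98 (SE 0.29, 95% interval 0.34 to 1.62, adjusted p 0.0362 in edgeR's test). The call did not hold when any library but cadmium replicate 1 was left out. The adjusted p was then 0.0956, 0.0595 and 0.150 without control replicates 1, 2 and 3, and 0.0884 and 0.154 without cadmium replicates 2 and 3, with changes of 0.72 to 1.04. Nor did it hold with total-count scaling, where the change was 0.75 (adjusted p 0.0763 in edgeR's test).

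miR-795-5p, encoded beside miR-794, was at 95.6, 57.2 and 60.9 CPM in the control libraries and at 97.0, 131 and 139 CPM under cadmium. The groups were separate by a narrow gap between control replicate 1 and cadmium replicate 1, and overlapped in deposited CPM, where those libraries were at 109 and 102. The change was 0.78 (SE 0.27, 95% interval 0.18 to 1.39), with an adjusted p of 0.0605 in edgeR's test. This member passed without either of those libraries, at 0.0346 without control replicate 1 and 0.0376 without cadmium replicate 1. It did not pass without any other library. The adjusted p was 0.168 and 0.222 without control replicates 2 and 3, and 0.149 and 0.176 without cadmium replicates 2 and 3. With total-count scaling it was 0.189 in edgeR's test.

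**Figure D2:**
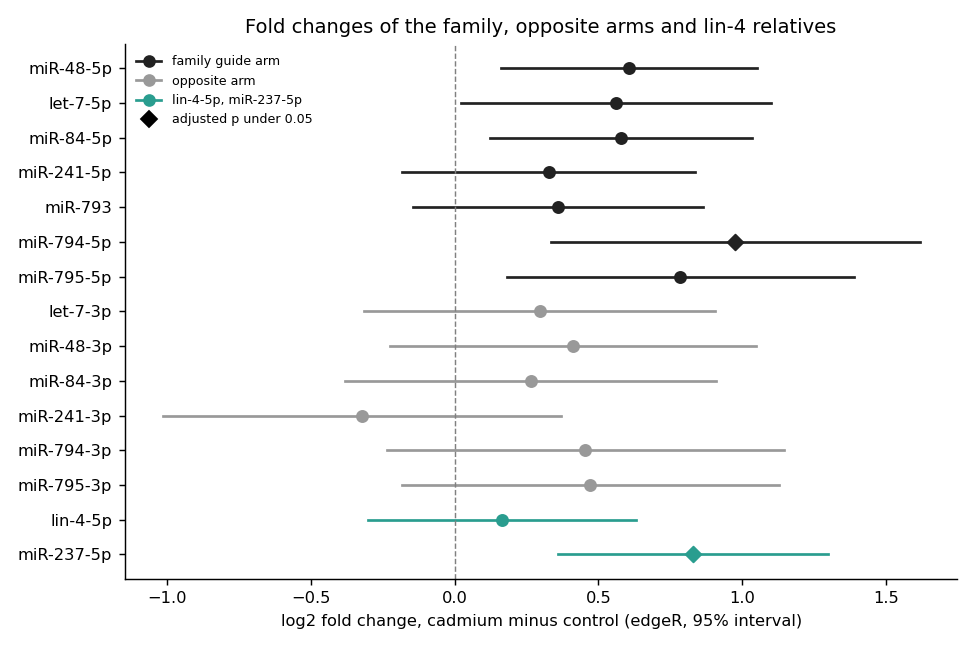
Fitted log2 fold change, cadmium minus control, with its 95% interval from edgeR for the 7 guide arms, the 6 opposite arms of their hairpins, lin-4-5p and miR-237-5p. Diamonds mark an adjusted p under 0.05, and all 7 guide arms lie to the right of 0.

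Summed over the 7 members, the family stood at 26334, 19564 and 22058 CPM in the control libraries and at 27582, 43092 and 31318 CPM under cadmium. The groups did not overlap on this scale, and the cadmium mean was 1.501 times the control mean. That ratio ran from 1.30 without cadmium replicate 2 to 1.64 without cadmium replicate 1. As a plain share of library counts, without TMM scaling, the family took 3.01%, 2.09% and 2.22% in the control libraries and 2.90%, 3.86% and 2.72% under cadmium. On that scale the groups overlapped, since control replicate 1 lay above 2 of the cadmium libraries, and the means were 2.44% ± 0.50 and 3.16% ± 0.61 (SD, n = 3 each). No test was made of the sum.

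The balance of other miRNAs moved at the same time. The guide arms of the miR-35 family, which mark embryos and the germline, took 7.25%, 11.7% and 9.05% of counts without cadmium and 1.80%, 2.63% and 2.03% under cadmium, and all 8 of them were lower (adjusted p from 0.000126 to 0.0297 in edgeR's test), where 12% of all tested miRNAs passed as lower. None of the 8 was at 0 in any library, and miR-41-3p was the scarcest, at 4 to 38 counts. Control replicate 1 was the control with the smallest miR-35 share and the largest let-7 family share. Among the cadmium libraries the order differed: replicate 2 had the largest share of both, at 2.63% for the miR-35 family and 3.86% for the let-7 family. With the miR-35 family taken out of the totals, the let-7 family took 2.68% ± 0.49 of control counts and 3.23% ± 0.64 of cadmium counts (SD, n = 3 each), and the groups still overlapped. With the miR-35 family left out of edgeR's test, all 7 members stayed above 0, with a median change of 0.59, and miR-794-5p had an adjusted p of 0.0524. Markers of other tissues, 1 miRNA for each, did not pass the threshold: the muscle miRNA miR-1-3p changed by 0.30 (adjusted p 0.296), the neuronal miR-124-3p by 0.26 (0.633) and the intestinal miR-60-3p by −0.21 (0.478) in edgeR's test. In TMM-scaled CPM the groups overlapped for each of them. In deposited CPM miR-60-3p was lower in every cadmium library, at 1733, 2362 and 1997 in control and 1699, 1643 and 1294 in cadmium libraries. The part of these shifts in the let-7 family's values was not tested. Leaving out the miR-35 rows cannot show it, because that changes totals and scaling but not the mix of cells in the worms.

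**Figure D3:**
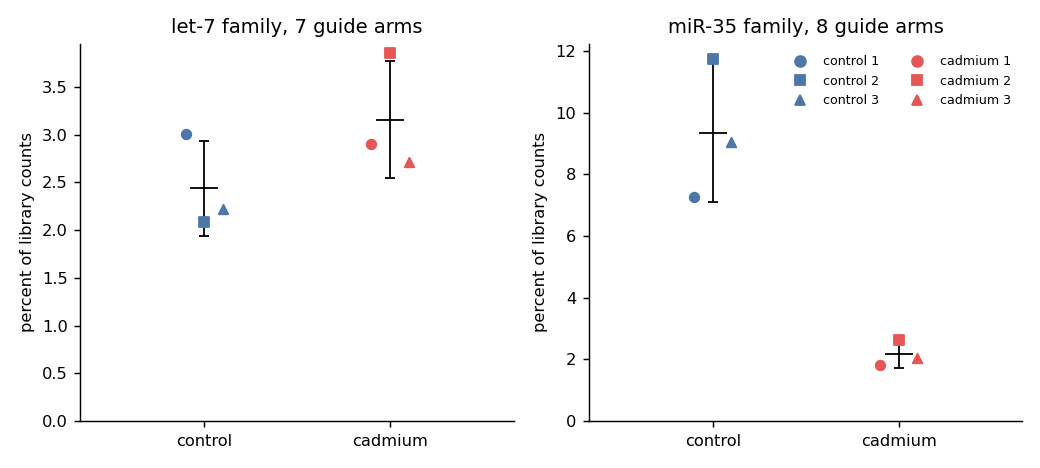
Percent of library counts taken by the 7 let-7 family guide arms (left) and by the 8 miR-35 family guide arms (right) in each library, with group mean and SD, on axes that start at 0. The let-7 family shares overlap between groups, with control replicate 1 at 3.01%, while miR-35 family shares are lower in all 3 cadmium libraries.

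The shares of the 3 abundant members in the family differed between groups by less than the spread between libraries. miR-48-5p took 54.2%, 55.5% and 57.0% of the family's counts without cadmium and 59.5%, 55.9% and 54.1% under cadmium. The cadmium libraries held both the highest and the lowest share. let-7-5p took 26.0%, 24.1% and 23.9% in the control libraries and 20.9%, 25.5% and 25.9% under cadmium. miR-84-5p stayed between 15.0% and 16.5% in all 6 libraries. These shares do not depend on how libraries are scaled, and their 95% Wilson intervals reach at most 0.44 percentage points to either side.

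Among the scarcer members, miR-241-5p went from 1.68% ± 0.17 to 1.39% ± 0.16 of the family (SD, n = 3 each), a difference of −0.29 percentage points with a two-sided exact permutation p of 0.2. miR-793 made up 1.501% ± 0.20 in control and 1.35% ± 0.36 in cadmium libraries, with its lowest share, 0.942%, in cadmium replicate 2. miR-794-5p made up 0.420% ± 0.094 in control and 0.549% ± 0.205 in cadmium libraries, and its highest share, 0.784%, was in cadmium replicate 3. miR-795-5p went from 0.310% ± 0.046 to 0.366% ± 0.071. Over the 7 members the two-sided exact permutation p-values ran from 0.2 to 1, where 0.1 is the smallest that 3 libraries against 3 can give, so this test could not reach the threshold.

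A fit across all 208 miRNAs was also made with the family's own sum as the size of each library, so that each change is relative to the family. The 3 abundant members make up nearly all of that sum, so their changes are held near 0 by construction, and their values there are no test of stability. In that fit 0 of 7 members passed the threshold, with 0 also at an unadjusted p under 0.05 in edgeR's test. Over all tested miRNAs 29.3% passed, a share with which the members' count cannot be compared for the same reason. The values of the abundant members were 0.02 for miR-48-5p (95% interval −0.48 to 0.53), −0.04 for let-7-5p (−0.55 to 0.48) and −0.01 for miR-84-5p (−0.52 to 0.51). miR-794-5p, the member past the threshold on the TMM scale, was at 0.39 relative to the family (95% interval −0.33 to 1.10, adjusted p 0.415 in edgeR's test). Its change was therefore not shown to differ from that of the family sum, of which no test was made. At the other end, miR-241-5p was at −0.27 (95% interval −0.86 to 0.31, adjusted p 0.487 in edgeR's test). The widths of these intervals do not allow the make-up to be called unchanged.

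**Figure D4:**
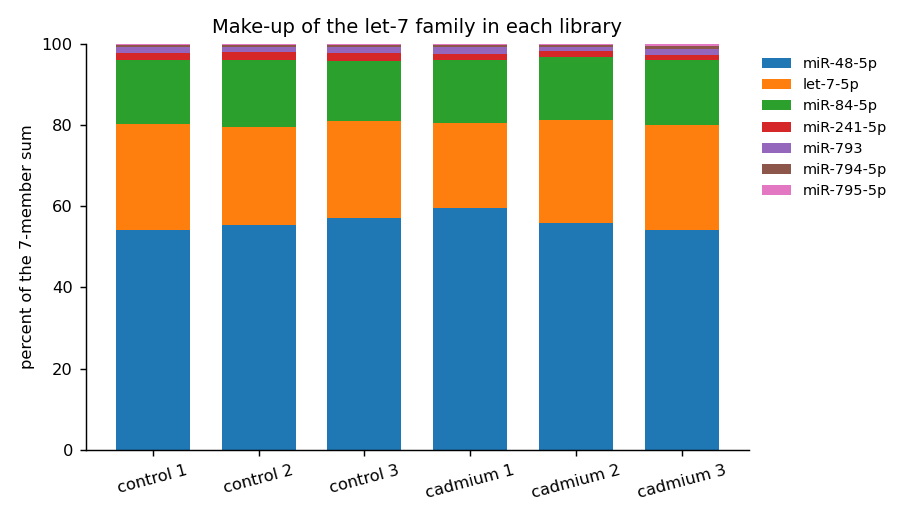
Percent of the 7-member sum taken by each member in each of the 6 libraries, as stacked bars from 0 to 100. miR-48-5p is the largest part in every library, at 54.1% to 59.5%, and with let-7-5p and miR-84-5p it makes up 95.9% to 96.9%.

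Members that share a locus were set against each other. The ratio of miR-48-5p to its neighbour miR-241-5p was 36.4, 32.1 and 31.4 in the control libraries and 39.3, 38.6 and 44.8 under cadmium. The mature arms come from hairpins 1678 bases apart, and every cadmium ratio was above every control ratio. This ratio was picked out after the values were seen and got no test. The share of other pairs of miRNAs whose ratios separate was not computed. The ratio of miR-794-5p to miR-795-5p was 1.03, 1.80 and 1.29 in the control libraries and 1.18, 1.47 and 1.77 under cadmium, with groups that overlapped fully. Over the 6 libraries, which share the difference between groups, log2 levels of miR-48-5p correlated with those of miR-84-5p on another chromosome at r = 0.977 and with those of its neighbour miR-241-5p at r = 0.884. For miR-794-5p and miR-795-5p r was 0.860.

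The opposite arms of the hairpins, usually the strand that is discarded, were scarce. Reads from 6 of them were listed, all but that of miR-793, and all 6 could be tested. None of the 6 passed the threshold, 0 had an unadjusted p under 0.05 in edgeR's test, and 5 of 6 had a fitted change above 0, with a median of 0.35. Over all tested miRNAs 21.6% passed and 50.5% had a change above 0. let-7-3p had 16, 29 and 39 counts without cadmium and 42, 44 and 26 with it, a change of 0.29 (95% interval −0.32 to 0.90). It was the 1 arm of 6 whose groups did not overlap in TMM-scaled CPM, by a gap between 11.2 and 11.6, against 17.8% of all tested miRNAs, and it overlapped in deposited CPM. miR-48-3p changed by 0.41 (−0.22 to 1.05), miR-84-3p by 0.26 (−0.38 to 0.91), miR-794-3p by 0.45 (−0.24 to 1.15) and miR-795-3p by 0.47 (−0.19 to 1.13), where brackets give 95% intervals. miR-241-3p was the exception in sign, with a change of −0.32 (−1.02 to 0.37). It had 143, 137 and 241 counts without cadmium and 213, 208 and 65 with it, and the low value was that of cadmium replicate 3.

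The lead of the guide arm over its partner spanned a wide range among the hairpins. let-7-5p outnumbered let-7-3p by 421 to 844 times, miR-48-5p its partner by 281 to 371 times, and miR-84-5p its partner by 138 to 251 times. For miR-794 the ratio was 10.7 to 27.0, for miR-795 6.73 to 15.6, and for miR-241 5.14 to 13.0. The 3 abundant members thus had ratios above 100 in all 6 libraries, while the others had ratios below 30.

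The log2 ratio of 5p to 3p was compared over all 63 hairpins with enough counts on both arms, of which 3.17% passed an adjusted p of 0.05 in limma. None of the 6 let-7 family hairpins passed, and 0 had an unadjusted p under 0.05. The mean ratio was higher under cadmium in 6 of 6, against 42.9% of all hairpins. The groups did not overlap in 2 of 6, miR-48 and miR-241, against 12.7% of all hairpins. For miR-48 the gap was narrow, between 302.4 in control replicate 3 and 306.5 in cadmium replicate 2. Its 3p arm had only 95 to 266 counts per library. For miR-241 the 5p count was 5.14, 6.39 and 6.56 times the 3p count in the control libraries and 6.91, 10.2 and 13.0 times under cadmium. On the log2 scale with 0.5 added to each count this is a change of 0.69 (SE 0.34, 95% interval −0.07 to 1.46, adjusted p 0.447 in limma). The other 5 changes ran from 0.23 to 0.49. Pooled over the 6 hairpins, the opposite arms made up 0.700%, 0.679% and 0.674% of the counts of both arms in the control libraries and 0.607%, 0.462% and 0.443% under cadmium. All 3 cadmium libraries were lower, and no test was made of this pooled share. It leans on miR-241-3p, which gave 143, 137 and 241 of 342, 342 and 580 opposite-arm counts in the control libraries. Under cadmium it gave 213, 208 and 65 of 584, 671 and 307. The same share over other hairpins was not computed, so the separation has no background beside it.

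**Figure D5:**
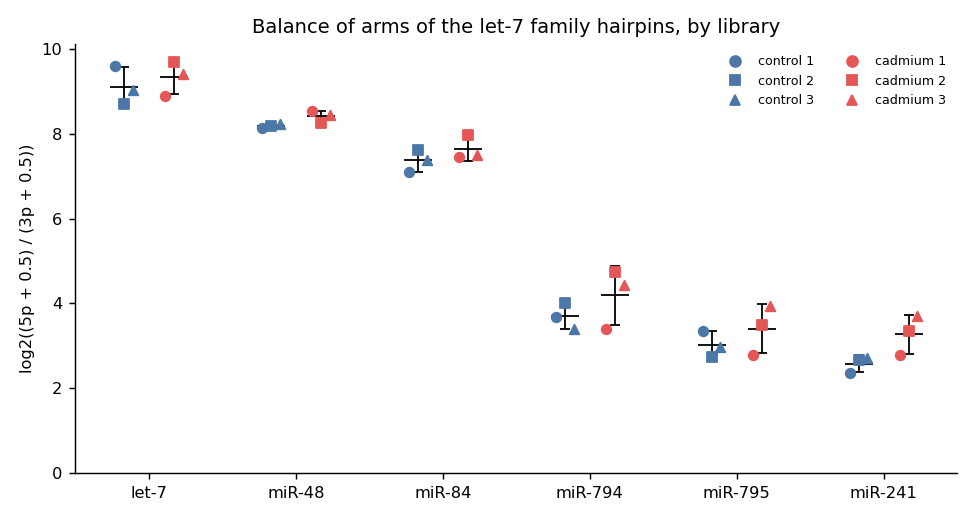
Log2 ratio of 5p to 3p counts, with 0.5 added to each, for the 6 let-7 family hairpins that list both arms, by library with group mean and SD. The let-7, miR-48 and miR-84 hairpins lie above 7 on this scale and the others below 5. The groups are separate, by narrow gaps, for miR-48 and miR-241.

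The other guide miRNAs of the timing pathway are lin-4-5p, which opens the larval sequence, and its seed relative miR-237-5p. One of these 2 passed the threshold as higher, against 9.62% of all tested miRNAs. miR-237-5p was at 2832, 2801 and 2368 CPM in the control libraries and at 3376, 5452 and 5372 CPM under cadmium, with no overlap on this scale or in deposited CPM and a change of 0.83 (SE 0.21, adjusted p 0.0206 in edgeR's test). Its call was lost when any library but cadmium replicate 1 was left out, with adjusted p-values of 0.0702, 0.0548 and 0.1246 without control replicates 1, 2 and 3 and 0.0725 and 0.0915 without cadmium replicates 2 and 3. lin-4-5p was at 2542, 1527 and 1753 CPM in the control libraries and at 2193, 2281 and 2049 CPM under cadmium, with control replicate 1 above all cadmium libraries. The change was 0.16 (95% interval −0.30 to 0.63, adjusted p 0.609 in edgeR's test), and its sign turned with total-count scaling (−0.04).

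The let-7 family sum was 10.4, 12.8 and 12.6 times lin-4-5p in the control libraries and 12.6, 18.9 and 15.3 times under cadmium. The groups overlapped, with cadmium replicate 1 below control replicates 2 and 3. The means were 11.9 ± 1.4 and 15.6 ± 3.2 (SD, n = 3 each), and no test was made of this ratio. Set against lin-4-5p and miR-237-5p together, the family was 4.90, 4.52 and 5.35 times as abundant in the control libraries and 4.95, 5.57 and 4.22 times under cadmium. The means of the latter ratio, 4.92 ± 0.42 and 4.91 ± 0.68 (SD, n = 3 each), differed by less than the spread between replicates.

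Outside the family, the 3 tested miRNAs whose log2 levels followed the family sum most closely over the 6 libraries were miR-48-3p (Pearson r = 0.942), miR-788-5p (0.902) and miR-5551-5p (0.884). The first is the opposite arm of the most abundant member. miR-788-5p was at 129, 96.6 and 138 CPM in the control libraries and at 304, 428 and 263 CPM under cadmium, with cadmium replicate 2 the highest, as it was for the family sum. miR-5551-5p was at 25.9 to 36.3 CPM in control and 44.2 to 52.9 CPM in cadmium libraries. These libraries share the difference between groups, so the correlations describe likeness of pattern only.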

How the data were processed

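Each library came with a deposited file of raw read counts by mature miRNA and a second file in which the authors give CPM. CPM computed from the counts equalled the deposited values. Per the submitters' processing notes, FastQC 0.11.9, cutadapt 3.4, HISAT2 2.2.1, StringTie 2.1.5, Bowtie2 2.4.2, DESeq2 and edgeR were used on build WBcel235, with no roles named. How reads matching several family members were counted is not given in the sources used here, so levels of near-identical members are uncertain to that extent. No pair of members had the same counts in all libraries. Another 12 per-sample columns in series tables match no sample title and stayed out.

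Counts were analysed in R 4.3.3 with edgeR 4.0.16 (filterByExpr, TMM, quasi-likelihood F test, two-sided, Benjamini-Hochberg over 208 miRNAs), limma 3.58.1 for arm ratios (mean of at least 10 counts per arm, 0.5 added) and for log2(deposited CPM + 1), and DESeq2 1.42.0 as an alternative. Standard errors were derived as the fitted change over the root of F. Procedures were also run on counts simulated with a common spread for all miRNAs. The outcome is not reported here, so that run lends no support to the calls. Deviations from the group means correlated at −0.04, −0.29 and −0.30 between libraries of equal number, so replicate numbers were not read as pairs. Hairpins were located in Ensembl's WBcel235 annotation through the locus tags RefSeq gives their names.

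The miRNAs named were the 7 members, the listed opposite arms, lin-4-5p and miR-237-5p, and the 3 miRNAs most correlated with the family sum. Marker lists were the 8 miR-35 guide arms, miR-1-3p, miR-124-3p and miR-60-3p. Members and lists were chosen with earlier results of these data known. The fit relative to the family sum was chosen after the data were seen.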

Additional observations from a re-analysis of the deposited data

How the results depend on the processing

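Directions of the 7 members were the same under every alternative: of 112 values, 88 did not cross the threshold, 14 newly passed it, 10 no longer did and 0 reversed. The number of members past the threshold was 1, and it moved with the setting. It was 2 with DESeq2 size factors or with TMM factors computed without the members (added with the data in view), 4 with the DESeq2 Wald test, and 5 with no filter or at an unadjusted p. It was 0 with total-count scaling, with limma on log2(deposited CPM + 1) or log2(deposited CPM + 0.1), and without the miR-35 family, and ran from 0 to 5 when single libraries were left out. The 5 came without cadmium replicate 1. Total-count scaling moved the median of all miRNAs to −0.16, and the members' median lay 0.52 above it, against 0.57 with TMM.

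miRNAs past the threshold numbered 45 over the whole table, 73 at an unadjusted p, and 22 to 52 with single libraries left out. Of lin-4-5p and miR-237-5p, 1 passed, and 0 did with total-count scaling or limma, with 0 to 1 across left-out libraries. The sign of lin-4-5p turned with total-count scaling (−0.039), and with single libraries left out its change ran from −0.0034 (without control replicate 2) to 0.40. The family's share of library counts was 0.721 percentage points higher under cadmium (0.372 to 1.00 with single libraries left out). It was 1.99 points higher without the 3 most abundant miRNAs in the total. Every share is larger in that smaller total, so the 1.99 cannot be set directly against the 0.721. Hairpins of the let-7 family whose arm ratio passed the threshold numbered 0 under every alternative run. The cause of the shifts between settings was not tested.

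With the replicate number as a block, 17 miRNAs passed, with 0 of the 7 members and 0 of lin-4-5p and miR-237-5p. By arm ratio 0 let-7 family hairpins passed, and the members' median change was 0.57. A planned test of shares within groups of equal seed was not run, because it needs mature sequences. Depth limits let-7-3p, miR-794-3p and miR-795-3p, which had 14 to 49 counts per library.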
